A study of Rattus norvegicus with 2 samples.

Results

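The genes described here are the chromatin modifiers and remodelers, the enzymes and readers that set, remove or recognise marks on histones and DNA or that move nucleosomes. They were chosen by name, as every listed gene whose rat symbol begins with Hdac, Sirt, Kdm, Kmt, Setd, Smarc, Arid, Ehmt, Dnmt or Cbx, or with Chd, Kat or Tet followed by a digit. This gave 63 genes of the 9894 listed in either library. The mRNA came from cortical neurons of E16 Sprague-Dawley rats, dissociated, electroporated with a control plasmid or with a PIWIL1 RNAi plasmid, and cultured for 48 h in Neurobasal medium with serum and B27. Each plasmid gave 1 library, so there was no replicate check. The siRNAs were expressed from the pSuper vector, no selection of transfected cells is described for this experiment, and which of the rat siRNAs was sequenced is not given in the sources used here. The mRNA of Piwil1, the targeted gene, is not analysed here, so the labels were not checked against it.

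Chromatin is opened or closed by opposing enzymes. Lysine acetyltransferases add acetyl groups to histone tails and favour transcription, and deacetylases and sirtuins take them off. Lysine methyltransferases and demethylases write and erase methyl marks that can go with active or silent genes, DNA methyltransferases methylate cytosine, and chromobox proteins bind methylated histones in silent chromatin. The SMARC proteins are subunits of ATP-driven remodelers, above all of the BAF (SWI/SNF) complex, whose subunit composition is known to change as cortical progenitors become neurons.

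The assay was digital gene expression profiling, which reads 21-base tags that begin at a CATG site of a transcript and counts the copies of all tags of a gene. The control library held 1947600 copies on genes and the RNAi library 1865913, and 3 copies, the limit used where a gene was not listed, came to 0.886 and 0.908 TPM (copies scaled to the clean tags of the library and not to gene length). Of 8 neuron markers, 7 were listed in both libraries and Syt1 in the RNAi library only, with 17347 copies in sum in the control library and 13968 in the RNAi library. Of these 7, 4 had log2 ratios below 0 and 3 above 0. The largest falls in copies were those of Stmn2 (7484 and 5678) and Map1b (3392 and 1758). Dcx had 1337 and 1365 copies, and Gap43, with 74.4% of its copies on tags ending in 8 or more A, had 2670 and 3541. The neural progenitor list (5 of 6 listed) had 3280 and 4192 copies, of which Vim had 2674 and 3724. Only Vim rose, while Sox2 (320 and 260), Nes (181 and 125), Pax6 (83 and 68) and Hes5 (22 and 15) were lower. The fibroblast list (5 of 5) had 1850 and 1728 copies. The astrocyte list (4 of 5) had 300 and 266 copies, the red blood cell list (3 of 3) 94 and 116, and the microglia list (4 of 5) 62 and 69. The oligodendrocyte list (5 of 5) had 23 and 19 copies, with Olig2 at 0 in the RNAi library, and of 4 endothelial markers only Flt1 was listed, with 2 copies in the RNAi library. The part of such cells in the values below was not tested, and in bulk RNA fewer cells of a type cannot be told apart from less RNA per cell. Since the number of CATG sites differs between genes, copies are compared below between libraries and not between genes.

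Of the 63 chromatin genes, 4 were higher in the RNAi library and 3 were lower. The higher genes were Smarcd2, Kat7, Setd6 and Smarca2, and the lower genes were Smarcad1, Cbx5 and Kdm4a. A call needed an FDR of at most 0.05 (Fisher's exact test on the copies of the 2 libraries, Benjamini-Hochberg over all 9894 genes) and an absolute log2 ratio of TPM (RNAi over control) of at least 0.58. The test compares these libraries and not the conditions. The 3 lower genes were 4.76% of the members, against 5.97% of all genes called lower, and the 4 higher genes were 6.35%, against 2.96% of all genes called higher. The lower share was thus near its background, and the higher share was above it but rests on 4 genes. Over the 59 members listed in both libraries the median log2 ratio was -0.19, with quartiles of -0.42 and 0.11, and 38 of them were below 0. Over all 8899 genes listed in both libraries the median was -0.085, with quartiles of -0.44 and 0.23, and 56.6% were below 0. The 95% counting interval lay wholly below 0 for 16 members (25.4%; 16.2% of all genes) and wholly above 0 for 7 (11.1%; 9.44% of all genes). The members were read more deeply than the average gene, with a median of 186 copies in both libraries together against 86.5, which narrows their intervals. Intervals are exact (Clopper-Pearson) and take in only the error of counting, since copies made by amplification do not each stand for a molecule.

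**Figure D1:**
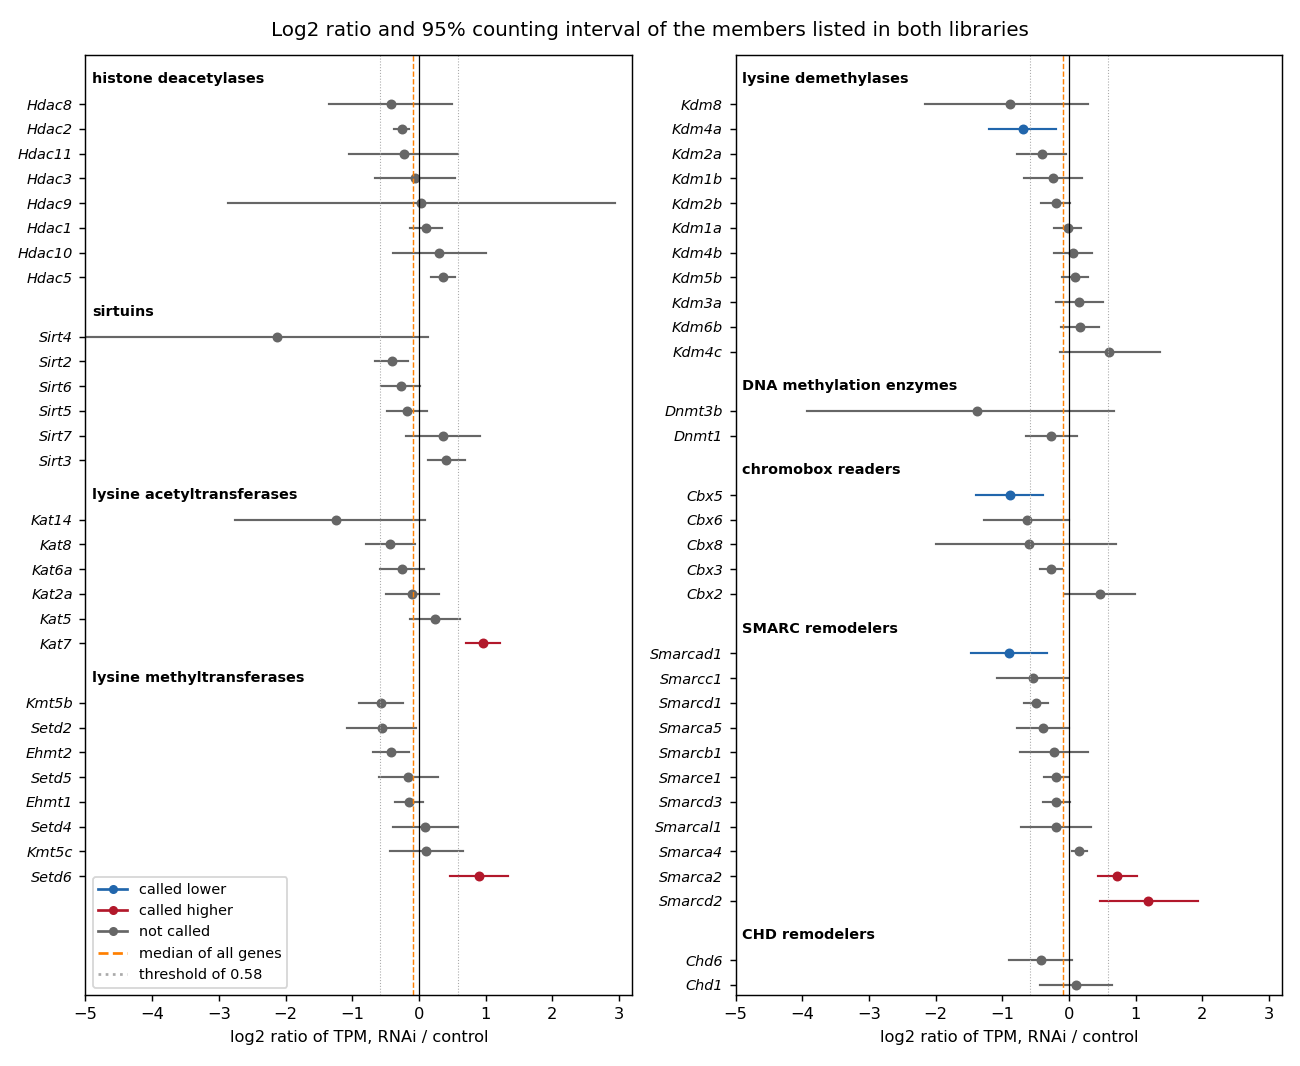
Log2 ratio of TPM (RNAi over control) of the 59 chromatin genes listed in both libraries, by role, with 95% exact counting intervals as bars, the median of all genes as a dashed line and the ratio threshold as dotted lines. Most genes lie between the dotted lines, 3 are called lower (blue) and 4 higher (red), and the interval of Sirt4 runs past the left edge to -5.38.

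**Figure D2:**
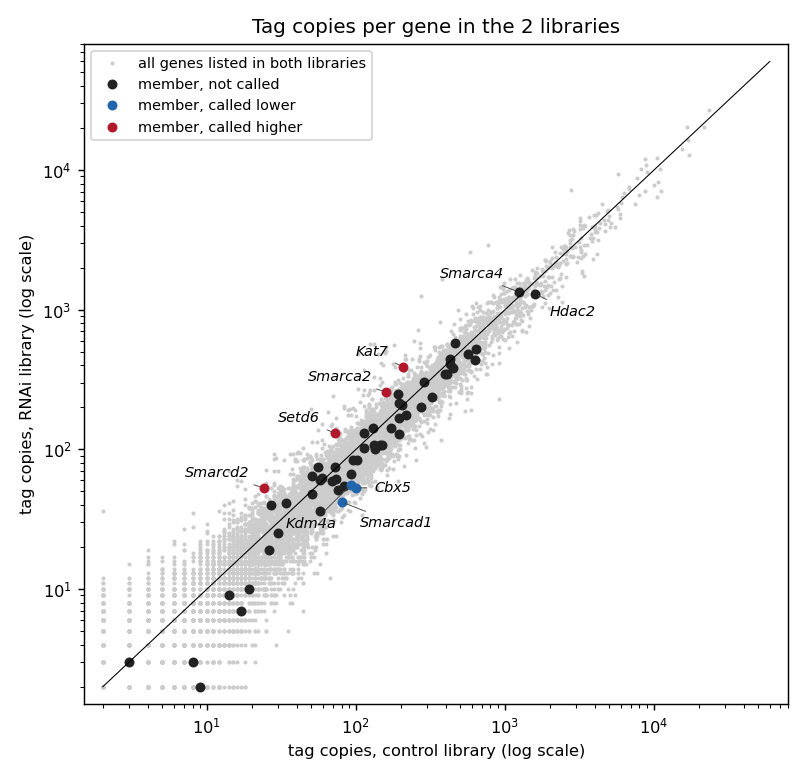
Tag copies per gene in the control library (x axis) and the RNAi library (y axis), both on log scales, for all genes listed in both libraries (grey) and for the chromatin genes (dark, blue or red), with a line at equal copies. The chromatin genes lie along that line up to Hdac2 with 1590 and 1296 copies, and the 7 called genes had between 77 and 597 copies in both libraries together.

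The most copied tags behind the 7 calls are shown here because the bases at the end of a tag went with its ratio in these libraries. Capitals mark the CATG cutting site and the end that was used to class the tag, either its last 2 bases or a run of 3 or more A, and sites are counted from the 3′ end of the transcript.
Smarca2, site 1: CATGgtgtAAAAAAAAAAAAA
Smarca2, site 3: CATGcttctctgtcacaatGC
Kat7, site 1: CATGttctctgctcAAAAAAA
Setd6, site 1: CATGctatttttactgatgCC
Smarcd2, site 1: CATGgggctgcccacccatAG
Smarcad1, site 3: CATGtgccttatttgacaaTG
Cbx5, site 2: CATGcgtatccagaggatgCG
Kdm4a, site 4: CATGtctgacccatcacctTC
All of these are the most copied tag of their gene except that of Smarca2 site 3, which is shown as the most copied tag of Smarca2 without a run of A. Among all tags with at least 20 copies, those ending in 13 or more A had a median log2 ratio of 1.91 (38 tags), those ending in 7 A one of 0.69 (21 tags) and those ending in TG one of -0.67 (866 tags). Over all tags the median was -0.077, and over the 158 tags of chromatin genes with that depth it was likewise -0.077, with 91 of them (57.6%) lower in the RNAi library against 55.3% of all tags.

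**Figure D3:**
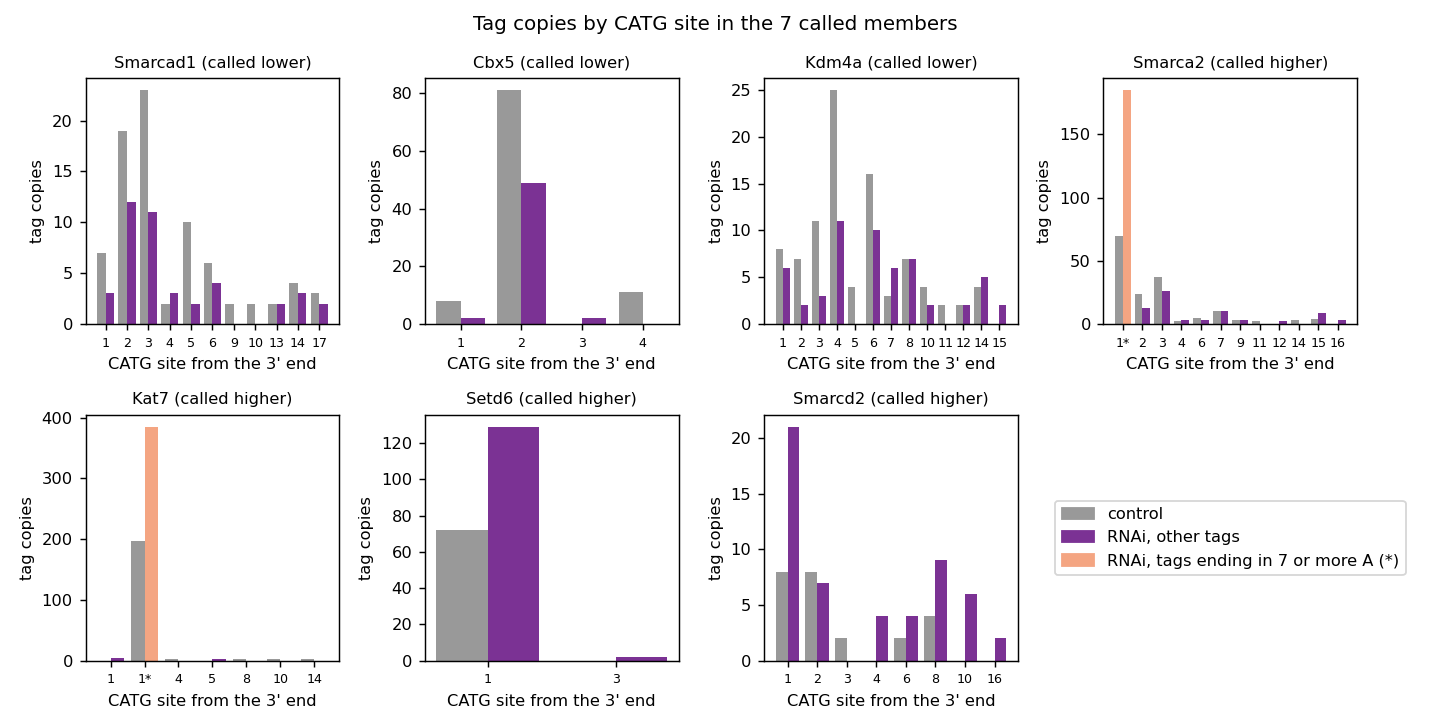
Tag copies (y axis, linear from 0, own scale in each panel) of the 7 called chromatin genes by CATG site counted from the 3′ end (x axis), for the control library (grey) and the RNAi library (purple, or orange with an asterisk for tags ending in 7 or more A). Smarcad1 and Kdm4a fell over several sites, Cbx5 mostly at site 2, Smarcd2 rose over several sites, and Smarca2, Kat7 and Setd6 rose at site 1.

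Among the lysine acetyltransferases, Kat7 was called higher and no gene was called lower. Kat7 (NM_181081), the catalytic subunit of the HBO1 complex that acetylates histones H3 and H4, had 206 copies in the control library and 391 in the RNAi library, or 60.8 and 118 TPM. The log2 ratio of Kat7 was 0.96 (95% interval 0.71 to 1.21, Fisher's exact test FDR 2.20e-14). Nearly all of this came from the site 1 tag ending in 7 A, which went from 194 to 382 copies. Of the copies of Kat7, 97.5% lay on tags with 7 or more A at the end, and the rest had 9 and 6 copies, a log2 ratio of -0.55 (95% interval -2.32 to 1.10). Once copies were corrected for the median of each tag end, Kat7 had a log2 ratio of 0.20 and was not called (FDR 0.216 by Fisher's exact test). Copies summed over the 6 acetyltransferases went from 772 to 882, and the gain of Kat7 was larger than that of the sum.

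The other acetyltransferases did not pass the test. Kat6a, which acetylates histone H3 in MOZ complexes, had 173 and 142 copies, a log2 ratio of -0.25 (95% interval -0.58 to 0.08). Kat8, the enzyme for histone H4 in the MSL and NSL complexes, had 149 and 108 copies, a log2 ratio of -0.43 (95% interval -0.80 to -0.06, Fisher's exact test FDR 0.128). Kat14, a subunit of the ATAC complex, passed the ratio threshold with 17 and 7 copies and a log2 ratio of -1.24, but its interval of -2.76 to 0.10 included 0. Kat2a and Kat5, the catalytic subunits of SAGA and of TIP60, had log2 ratios of -0.10 and 0.24. Differences in these genes were therefore not detectable at this depth after adjustment.

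Among the lysine methyltransferases, Setd6 was called higher and no gene was called lower. Setd6 (NM_001106167), which methylates non-histone proteins such as RelA, had 72 copies in the control library and 131 in the RNAi library, or 21.3 and 39.7 TPM. Setd6 had a log2 ratio of 0.90 (95% interval 0.47 to 1.34, Fisher's exact test FDR 0.000137). The site 1 tag, which ends in CC, carried 72 and 129 of these copies, so the call rests on a single tag. After the tag-end correction Setd6 stood at a log2 ratio of 0.79 and was still called (FDR 0.00138 by Fisher's exact test).

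Of the other methyltransferases, Kmt5b and Ehmt2 passed the FDR threshold on the lower side without being called. Kmt5b, which adds further methyl groups to a singly methylated lysine of histone H4, had 196 and 129 copies and a log2 ratio of -0.57 (95% interval -0.90 to -0.24, Fisher's exact test FDR 0.00805), just short of the ratio threshold. Ehmt2 (G9a) had 274 and 200 copies and a log2 ratio of -0.42 (95% interval -0.69 to -0.15, Fisher's exact test FDR 0.0265). Ehmt1 (GLP), its partner in a histone H3 methyltransferase dimer, had 395 and 348 copies and a log2 ratio of -0.15, with an interval of -0.36 to 0.06 that included 0. The tags of Ehmt2 did not move together, since its site 1 tag went from 162 to 91 copies and its site 2 tag from 60 to 65. The site 1 tag of Kmt5b ends in GG, an end with a median of -0.55 among all tags, and went from 124 to 77 copies, and its corrected log2 ratio was -0.25 (Fisher's exact test FDR 0.487). Ehmt2 had a corrected log2 ratio of -0.32 (Fisher's exact test FDR 0.187), so neither gene kept the FDR threshold. Kmt5c, the paralog of Kmt5b, had 57 and 60 copies and a log2 ratio of 0.11 (95% interval -0.44 to 0.66). The remaining genes were Setd2, the enzyme that trimethylates histone H3 behind elongating polymerase, Setd4, Setd5 and Setd7, with log2 ratios from -0.56 (Setd2) to 0.09 (Setd4) where both libraries listed the gene. Setd7 was listed in the RNAi library only, with 2 copies, below the limit of 3.

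No histone deacetylase was called in either direction, and the group held both directions. Hdac2, a class I deacetylase of the NuRD, Sin3 and CoREST complexes, had 1590 copies in the control library and 1296 in the RNAi library, or 469 and 392 TPM. Its log2 ratio was -0.26 (95% interval -0.37 to -0.15, Fisher's exact test FDR 0.000234), past the FDR threshold but short of the ratio threshold. Hdac1, its close paralog in the same complexes, had 287 and 302 copies and a log2 ratio of 0.11, with an interval of -0.13 to 0.35 that included 0. Hdac5, a class IIa deacetylase that shuttles out of the nucleus with neuronal activity, had 462 and 579 copies and a log2 ratio of 0.36 (95% interval 0.18 to 0.54, Fisher's exact test FDR 0.000242). For Hdac2 the lower value came mostly from 1 tag, at site 3, which went from 1342 to 1036 copies and held most copies of the gene. Its tag at site 8 went the other way, from 12 to 27. For Hdac5, 8 of 12 tags were higher in the RNAi library, among them the site 2 tag (43 and 83 copies) and the site 7 tag (89 and 132). After the tag-end correction, Hdac2 stood at -0.14 on the log2 scale (Fisher's exact test FDR 0.238). Hdac1 stood at 0.47 (Fisher's exact test FDR 0.000486) and Hdac5 at 0.40 (Fisher's exact test FDR 4.58e-05). Hdac1 thus passed the FDR threshold only after the correction, short of the ratio threshold. Hdac3, Hdac8, Hdac9, Hdac10 and Hdac11 had between 6 and 99 copies in both libraries together, log2 ratios from -0.42 to 0.31 and FDR values of at least 0.618 by Fisher's exact test.

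The sirtuins, deacylases that depend on NAD, gave no call. Sirt2, a mostly cytoplasmic deacetylase of tubulin and histone H4, had 322 and 237 copies and a log2 ratio of -0.41 (95% interval -0.65 to -0.16, Fisher's exact test FDR 0.0159). Sirt3, the main mitochondrial deacetylase, had 191 and 248 copies and a log2 ratio of 0.41 (95% interval 0.13 to 0.69, Fisher's exact test FDR 0.0133). These genes thus lay on opposite sides of 0, each past the FDR threshold and short of the ratio threshold. Sirt6, a nuclear deacetylase of histone H3, had 218 and 176 copies and a log2 ratio of -0.27 (95% interval -0.57 to 0.02). Sirt4, Sirt5 and Sirt7 had log2 ratios of -2.12, -0.18 and 0.36, the first on 9 and 2 copies only, with an interval of -5.38 to 0.14. The tag-end correction brought Sirt2 to -0.23 and Sirt3 to 0.21.

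Among the lysine demethylases, Kdm4a was called lower and no gene was called higher. Kdm4a (NM_001107966), which removes methyl groups from histone H3, had 93 copies in the control library and 56 in the RNAi library, or 27.5 and 17.0 TPM. This gave a log2 ratio of -0.70 (95% interval -1.20 to -0.20, Fisher's exact test FDR 0.0422). Among 13 tags of Kdm4a, 8 were lower in the RNAi library, and its most copied tag, at site 4, went from 25 to 11 copies. This call lay close to both thresholds and was lost under 11 of 17 other settings. Kdm4c, a demethylase of the same family, went the other way without passing the FDR threshold, with 27 and 40 copies and a log2 ratio of 0.60 (95% interval -0.14 to 1.36). Its site 1 tag had 23 and 22 copies, and the difference came from a site 2 tag with 12 copies in the RNAi library and none listed in the control library. Kdm8 had 19 and 10 copies and a log2 ratio of -0.89, with an interval of -2.16 to 0.29.

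The deeply read demethylases differed little between the libraries. Kdm5b, which removes methyl marks of active promoters, had 427 and 445 copies and a log2 ratio of 0.10 (95% interval -0.10 to 0.29). Kdm1a (LSD1), the demethylase of the CoREST complex with a neuronal splice form, had 427 and 410 copies and a log2 ratio of -0.02 (95% interval -0.22 to 0.18). Kdm2b, which brings a Polycomb complex to CpG islands, had 406 and 344 copies and a log2 ratio of -0.20 (95% interval -0.41 to 0.01). The intervals of all 3 genes leave out a change as large as the ratio threshold, as far as counting error goes. The remaining demethylases, Kdm1b, Kdm2a, Kdm3a, Kdm4b and Kdm6b, ran from -0.41 (Kdm2a) to 0.16 (Kdm6b) on the log2 scale, with FDR values of at least 0.154 by Fisher's exact test.

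DNA methylation was represented by Dnmt1 and Dnmt3b, and neither was called. Dnmt1, the maintenance methyltransferase that copies methyl marks to the new strand after replication, had 132 and 107 copies and a log2 ratio of -0.27 (95% interval -0.65 to 0.11). Its tags disagreed, since the most copied one, CATGagcgcgctggtggctGC at site 8, went from 40 to 17 copies while the next, CATGgctgacactaagctgTT at site 6, had 25 and 26. Dnmt3b, a de novo methyltransferase, had 8 and 3 copies, too few for a difference to be detectable. Other members of these families are not analysed here.

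Among the chromobox readers, Cbx5 was called lower and 4 of the 5 genes had log2 ratios below 0. Cbx5 (NM_001106797), which encodes HP1 alpha, the reader of methylated histone H3 in heterochromatin, had 100 copies in the control library and 53 in the RNAi library, or 29.5 and 16.04 TPM. Cbx5 had a log2 ratio of -0.88 (95% interval -1.39 to -0.39, Fisher's exact test FDR 0.00482). The site 2 tag, which ends in CG, went from 81 to 49 copies. The other tags together went from 19 to 4 copies, among them the site 4 tag CATGggaaagaagaccaagAG with 11 copies in the control library and none listed in the RNAi library. The tag-end correction left Cbx5 called, with a log2 ratio of -0.91 (FDR 0.00439 by Fisher's exact test). Copies summed over the 5 chromobox genes went from 870 to 693, a log2 ratio of -0.29 (95% interval -0.44 to -0.15).

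Cbx3, which encodes HP1 gamma, had 643 and 520 copies and a log2 ratio of -0.27 (95% interval -0.44 to -0.10, Fisher's exact test FDR 0.0280), below the ratio threshold. Its site 1 tag had 393 and 350 copies and its site 4 tag 226 and 139. The Polycomb chromobox genes were Cbx2, Cbx6 and Cbx8, whose proteins bind methylated histone H3 in Polycomb repressive complexes. Cbx6 had 57 and 36 copies and a log2 ratio of -0.63, and Cbx8 had 14 and 9 copies and a log2 ratio of -0.60, but the intervals of both reached 0. Cbx2 had 56 and 75 copies and a log2 ratio of 0.46 (95% interval -0.06 to 0.98). The tag-end correction brought Cbx3 to -0.19 (Fisher's exact test FDR 0.275). The HP1 genes were not tested against the Polycomb genes, which had fewer copies than Cbx3 and wider intervals.

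The SMARC remodelers held 3 of the 7 calls. Smarcad1 (NM_001107864), an ATP-driven remodeler that helps to restore silent chromatin after replication, had 80 copies in the control library and 42 in the RNAi library, or 23.6 and 12.7 TPM. The log2 ratio of Smarcad1 was -0.89 (95% interval -1.47 to -0.34, Fisher's exact test FDR 0.0123). Among 11 tags, 9 were lower in the RNAi library, so the lower value was spread over several tags. Only 2 of the 11 tags had at least 20 copies, both of them lower, and 2 were listed in the control library only. Its most copied tag ends in TG and went from 23 to 11 copies. After the tag-end correction the ratio stood at -0.67 and the FDR at 0.150 by Fisher's exact test, so that Smarcad1 was no longer called.

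Smarcd2 (NM_031983), a BAF60 subunit of the BAF complex, had 24 copies in the control library and 53 in the RNAi library, or 7.09 and 16.04 TPM. Smarcd2 had a log2 ratio of 1.18 (95% interval 0.46 to 1.94, Fisher's exact test FDR 0.00551). Among 8 tags, 6 were higher in the RNAi library, and without the site 1 tag (8 and 21 copies) the rest still had 16 and 32. Only 1 of the 8 tags had at least 20 copies, 3 were listed in the RNAi library only and 1 in the control library only. The tag-end correction left Smarcd2 called, with a log2 ratio of 1.16 (FDR 0.0100 by Fisher's exact test). Its paralog Smarcd1 went the other way, from 627 to 435 copies, a log2 ratio of -0.49 (95% interval -0.67 to -0.31, Fisher's exact test FDR 4.38e-06), below the ratio threshold. Of the tags of Smarcd1 with at least 20 copies, 4 of 5 were lower, such as the site 2 tag with 199 and 117 copies. Smarcd1 stood at -0.28 after the tag-end correction (Fisher's exact test FDR 0.0591). Smarcd3, the BAF60 subunit linked to neuronal BAF complexes, had 446 and 381 copies and a log2 ratio of -0.19, with an interval of -0.39 to 0.01.

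The ATPase genes of the BAF complex are Smarca2 (BRM) and Smarca4 (BRG1), of which a complex holds one. Smarca2 (NM_001004446) had 160 copies in the control library and 257 in the RNAi library, or 47.2 and 77.8 TPM. The log2 ratio of Smarca2 was 0.72 (95% interval 0.43 to 1.01, Fisher's exact test FDR 5.04e-06). This higher value came from its site 1 tags ending in 8 or more A, which went from 70 to 185 copies, 61.2% of those of the gene. The remaining tags had 90 and 72 copies, a log2 ratio of -0.29 (95% interval -0.75 to 0.18). After the tag-end correction Smarca2 stood at -0.49, so its direction turned. It passed the FDR threshold on that side (0.0255 by Fisher's exact test) but not the ratio threshold, and was not called. A tag with so few bases before the run of A can match other transcripts, and its match to Smarca2 was taken as deposited.

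Smarca4 had 1236 and 1340 copies and a log2 ratio of 0.15 (95% interval 0.04 to 0.27, Fisher's exact test FDR 0.0141), far short of the ratio threshold. Its tags at sites 1 and 2 had 325 and 291 copies and 394 and 367 copies, and the tag at site 3, which ends in AAA, had 285 and 390. The paralogs are told apart by few bases at some sites. Their site 7 tags are shown because they differ only by A19T, counted from 1 at the 5′ end with the base of Smarca2 first.
Smarca2, site 7: CATGtttgaccagaagtcaTC
Smarca4, site 7: CATGtttgaccagaagtctTC
The Smarca2 tag had 10 copies in each library and the Smarca4 tag had 63 and 85. At such sites a misread base would move a copy from one gene to the other.

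The core subunits of the BAF complex and the remaining SMARC genes all had log2 ratios below 0, and none was called. Smarce1 (BAF57) had 563 and 480 copies and a log2 ratio of -0.19 (95% interval -0.37 to -0.02, Fisher's exact test FDR 0.218). Smarcc1 (BAF155), Smarcb1 (the SNF5 core subunit), Smarca5 (the ATPase of ISWI complexes) and Smarcal1 (an annealing helicase at replication forks) ran from -0.54 (Smarcc1) to -0.19 (Smarcal1). With Smarcd3, these genes had FDR values of at least 0.191 by Fisher's exact test. Summed over all 11 SMARC genes, copies went from 3488 to 3259, a log2 ratio of -0.06 (95% interval -0.13 to 0.01), beside -0.03 for copies on all genes.

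No CHD or ARID gene was called, and the ARID genes were thinly read. Chd1, a remodeler of transcribed genes, had 59 and 62 copies and a log2 ratio of 0.11 (95% interval -0.43 to 0.65). Chd6 had 92 and 67 copies and a log2 ratio of -0.42 (95% interval -0.90 to 0.05). Arid4b, a subunit of the Sin3 complex, had 6 copies in the control library and was not listed in the RNAi library (Fisher's exact test FDR 0.135). Set at the limit of 3 copies there, Arid4b would be 1.95-fold lower, with the counting error of its control copies left out. The upper end of its 95% interval was a log2 ratio of -0.20. Arid3a had 2 copies in the control library only and Arid5a had 2 in the RNAi library only, both below the limit.

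Beside the calls, 9 chromatin genes passed the FDR threshold without the ratio threshold. Of these, 6 were lower (Smarcd1, Hdac2, Kmt5b, Sirt2, Ehmt2 and Cbx3; 3.56% of all genes) and 3 were higher (Hdac5, Sirt3 and Smarca4; 4.17% of all genes). All 6 lower genes missed the FDR threshold after the tag-end correction, with values from 0.0591 (Smarcd1) to 0.487 (Kmt5b) by Fisher's exact test. Of the higher genes, Sirt3 (0.283) and Smarca4 (0.0878) missed it as well, and Hdac5 (4.58e-05) kept it. The correction also brought genes past the FDR threshold without a call, by Fisher's exact test. These were Hdac1 on the higher side (log2 ratio 0.47, FDR 0.000486) and Kdm2a on the lower side (-0.56, FDR 0.0411). Smarca2, called higher as deposited, passed it on the lower side (-0.49, FDR 0.0255). Before the correction, another 5 genes with at least 20 copies passed the ratio threshold without the FDR threshold. These were Kat14, Kdm8, Cbx6 and Cbx8 on the lower side and Kdm4c on the higher side. The other 42 members, listed by role above, passed neither in this way. Of the 63 members, 7 had fewer than 20 copies in both libraries together, namely Hdac9, Sirt4, Setd7, Dnmt3b and the ARID genes, and at that depth only large differences could be seen.

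After the tag-end correction of copies, 1 chromatin gene was called lower (3.81% of all genes) and 2 were called higher (1.82% of all genes). These were Cbx5, Setd6 and Smarcd2. The correction takes out the median ratio of each tag end, estimated on the other part of the genes, and leaves the spread around that median in place. The median log2 ratio of the chromatin genes listed in both libraries was -0.21 after it and that of all genes -0.085. Leaving out tags that end in 8 or more A gave 2 chromatin genes lower (5.68% of all genes) and 3 higher (2.12% of all genes), with Smarca2 and Kdm4a lost. Kdm4a had 0% of its copies on such tags and kept a log2 ratio of -0.70, so only its FDR, close to the threshold before, had moved. In edgeR's exact test with a biological coefficient of variation set at 0.1, Kat7 alone was called (1.15% of all genes called higher and 1.72% lower), and with 0.2 no chromatin gene was called (0.152% and 0.0202%).

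**Figure D4:**
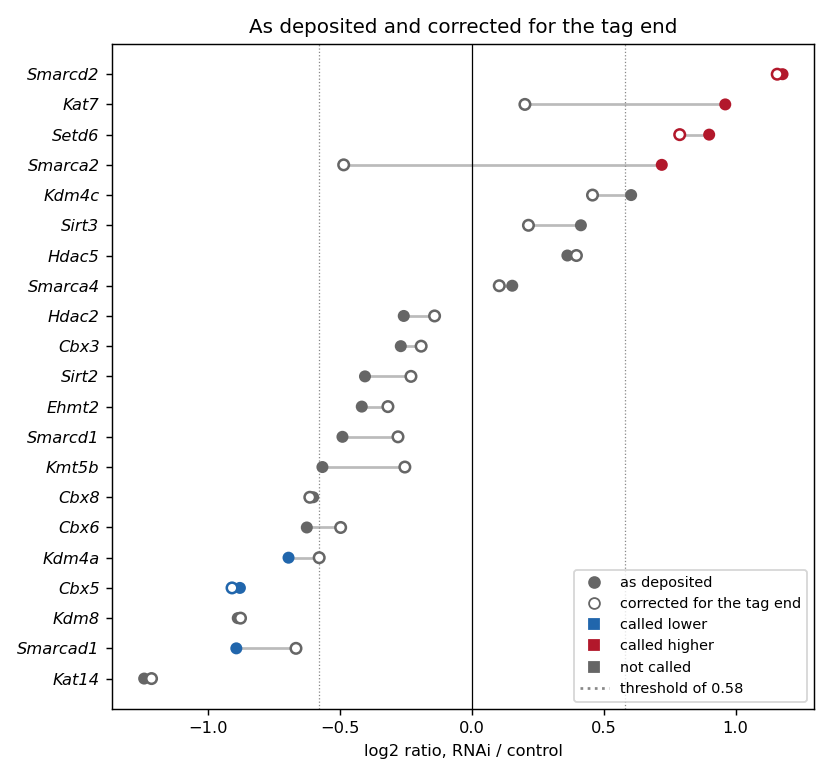
Log2 ratio (RNAi over control, x axis) as deposited (filled) and corrected for the tag end (open) for the 21 chromatin genes that passed at least 1 threshold, each on its own line and coloured by its call, with dotted lines at the ratio threshold. Smarca2 moves from 0.72 to -0.49 and Kat7 from 0.96 to 0.20, while Cbx5, Setd6 and Smarcd2 keep their side of the threshold.

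Partner subunits and other chromatin genes that carry none of these name stems were taken from lists of 177 symbols, of which 128 had a value. Of these 128 genes, 11 were called lower (8.59%) and 2 higher (1.56%), beside 5.97% and 2.96% of all genes, and their median log2 ratio was -0.15. They too were read more deeply (median 175.5 copies against 86.5), which narrows their intervals. After the tag-end correction 7 were called lower (3.81% of all genes) and 0 higher (1.82% of all genes). Among the BAF partners, Dpf1 (BAF45b), the subunit of neuronal BAF complexes, had 330 and 138 copies and a log2 ratio of -1.22 (95% interval -1.52 to -0.93, Fisher's exact test FDR 9.39e-16). Ss18l1 (CREST), another subunit of neuronal BAF complexes, had 8 copies in the control library and none listed in the RNAi library. It was called lower (FDR 0.0480 by Fisher's exact test). Set at the limit of 3 copies there, Ss18l1 would be 2.60-fold lower, with the counting error of its control copies left out. The upper end of its 95% interval was a log2 ratio of -0.74. All 3 tags of Dpf1 with at least 20 copies were lower, and it was still called after the correction with a log2 ratio of -1.09, whereas Ss18l1 was not. Actl6b (BAF53b), also a subunit of neuronal BAF complexes, had 435 and 441 copies and a log2 ratio of 0.06 (95% interval -0.14 to 0.25). Of the 9 BAF partners listed in both libraries, 6 had log2 ratios above 0 and the median was 0.06.

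Among partners of the acetyltransferase and deacetylase complexes, Morf4l2 fell from 1770 to 1054 copies, a log2 ratio of -0.71 (95% interval -0.82 to -0.60, Fisher's exact test FDR 3.98e-33). Its paralog Morf4l1 (MRG15), which like it belongs to the NuA4 and Sin3 complexes, fell from 1045 to 639 copies, a log2 ratio of -0.67 (95% interval -0.82 to -0.53, Fisher's exact test FDR 9.35e-18). Ing1, a reader subunit of Sin3, fell from 94 to 47 copies and Tbl1xr1, a subunit of a corepressor complex, from 155 to 77, with log2 ratios of -0.96 and -0.97. All 4 genes were still called after the correction for the tag end.

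Other called partners were the Polycomb genes Phc1 (118 and 76 copies, log2 ratio -0.60) and L3mbtl2 (93 and 144 copies, 0.67), the remodeling genes Baz1b (148 and 77, -0.91), Pole3 (118 and 70, -0.72) and Ruvbl1 (379 and 220, -0.75), and Ctcf (288 and 183, -0.62), which encodes the insulator protein at domain borders. Of these 6 genes, Baz1b and Ctcf were still called after the correction for the tag end. Of the other histone methyltransferases and their cofactors, none of the 19 listed was called.

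As a set, the chromatin genes also differed from all genes in features that the name rule did not use. They carried more tags, with a median of 7 per gene against 4 over all genes. They were also read more deeply (median 186 copies against 86.5), and the part of depth in the tag number was not tested. Of their copies, 43.4% lay on the site nearest the 3′ end, against 63.6% over all genes. This share pools copies, so deeply read genes weigh most, and single genes differed widely. Hdac2 (2886 copies) had 0% on that site and Smarca4 (2576 copies) had 24.1%, whereas Kat7 had 98.2% and Kat8 had 84.4%. Of the copies of the chromatin genes, 1.10% lay on tags with 8 or more A at the end, nearly all of them on Smarca2, against 1.89% over all genes. The GO terms are not such a feature, since the name stems themselves stand for chromatin functions. In the deposited annotation 57 of the 63 had a GO process term. For 48 of these (84.2%) a term named chromatin, histones or chromosome organization, against 2.75% of the 6830 annotated genes, which include the members.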

How the data were processed

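The libraries were deposited as 1 table each. The authors deposited the tag count of each gene (its tags' copies added up, not normalized), the same value as TPM (scaled to the library's clean tags and not to gene length), GO terms, and every tag with its copies. The submitters' processing notes name the build rn4; the program that assigned tags is not given in the sources used here. No positions are given, because the reference table used for names is of another assembly (GRCr8). Of the 63 members, 58 were named by RefSeq accession and 5 by the files' own description (Dnmt3b, Ehmt1, Setd2, Sirt2 and Smarcc1). No tag had fewer than 2 copies. Copies on genes were 57.5% and 56.5% of the clean tags recovered from TPM.

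Calls used a two-sided Fisher's exact test per gene against all other copies on genes, and the log2 ratio of deposited TPM. Genes are named if called, if past 1 threshold, if among the 3 best read of their role, or if listed in 1 library with at least 5 copies; the rest are given by range. Some listed genes outside the members are not reported here. The members, gene lists, tests and alternatives were chosen with earlier results of these data known. The tag-end correction classed tags by the last 2 bases or by a run of 3 or more A (13 or more as 1 class), using tags of 20 or more copies, each with 0.5 copies added. Alternatives were edgeR's TMM factors, DESeq2's size factors, all clean tags as totals, edgeR's exact test at a set biological coefficient of variation (0.1, 0.2 or 0.4), 1 added copy, minimum copies of 10, copies per symbol, stricter thresholds, removal of tags with 8 or more A at the end, the correction, 1 copy put back for tags listed in 1 library, and the most copied tag only. The test was tried on simulated counts with set fold changes, and the correction on simulated counts with set tag-end effects. Both simulations held counting error only. Variation between cultures was in neither, and tag-end effects were not in that of the test. Python 3.11.15, NumPy 2.4.6, pandas 2.3.3, SciPy 1.17.1, Matplotlib 3.10.9, R 4.3.3, edgeR 4.0.16 and DESeq2 1.42.0 were used.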

Additional observations from a re-analysis of the deposited data

How the results depend on the processing

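With 1 library per condition, counting error is the only error that the test behind the calls takes in. Against 3 chromatin genes called lower and 4 called higher, edgeR's exact test at a biological coefficient of variation set to 0.1 gave 0 and 1, and with 0.2 or 0.4 it gave 0 and 0. At an FDR threshold of 0.001 0 were lower, at a log2 threshold of 1 0 were lower and 1 higher, and with copies corrected for the tag end 1 was lower and 2 were higher. The other settings, and naming members by RefSeq accession only (added after seeing the data), left both counts within 1.5 times. The log2 ratio changed sign for Smarca2 without tags ending in 8 or more A (-0.29) and after the correction for the tag end (-0.49), for Kdm1a with TMM (0.0719) or DESeq2 (0.0624) scaling, and with the most copied tag only for Smarca4 (-0.0664) and Kdm4c (-0.0281). Of the values of named genes under other settings, 537 kept their direction and call, 41 lost a call, 4 gained one and 6 changed sign. Most named genes were not called at the outset, and stricter thresholds or naming by accession could not change those. The assumed variation left every log2 ratio as it was. The count of 537 is therefore no measure of robustness. The 7 called genes were still called in 6 (Kdm4a) to 13 (Kat7, Setd6) of 17 settings, which are not independent checks. Kat7 lost its call after the tag-end correction. With the most copied tag only, the genes called lower were different ones: Smarcad1, Cbx5 and Kdm4a lost their calls, and Dnmt1, Ehmt2, Kmt5b and Sirt2 were called instead. The TMM and DESeq2 scalings moved the median of all genes by 0.094 and 0.085 on the log2 scale. No paired analysis was possible because each condition had 1 library. No tag of 1 copy was listed, which limits genes with few copies.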
